A study of Mus musculus with 8 samples.

Results

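Potassium channel genes were taken from RNA sequencing of mouse embryonic stem cells as the genes whose symbol begins with Kcn, followed by letters and a closing number. The symbol rule matched 92 of the 24421 genes counted in every library, all of them annotated as protein coding. It passed over 6 other symbols that begin with Kcn (Kcnd3os, Kcne1l, Kcnmb4os1, Kcnmb4os2, Kcnq1ot1 and Kcnrg). The cells came from a cross of mouse strains (CAST/Ei x 129/Sv/Jae) and either carried the HNRNPK 6A mutation or were WT. HNRNPK is an RNA-binding protein; which residues 6A replaces, and whether a genotype is 1 clone, are not stated in the labels. The 4 groups, with 2 libraries each, were HNRNPK 6A mutant cells at day 14, WT cells at day 14, HNRNPK 6A mutant cells at day 0 and WT cells at day 0. Day 0 cells had grown on irradiated fibroblast feeders with leukemia inhibitory factor and were harvested after the feeders were taken off. Day 14 cells had been without the factor, as floating embryoid bodies for 4 days and on gelatin from day 5. One sentence of the series names day 7, whereas the title and protocol of each sample name day 14, which is used here.

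Potassium channels let potassium ions leave or enter a cell along their gradient, which sets the resting membrane potential and ends action potentials. Of the 92 genes, 40 encode voltage-gated subunits (Kv), which open on depolarization. Another 15 encode inward rectifiers (Kir), which hold the resting potential, and 14 encode tandem-pore leak channels (K2P). A class of 8 was grouped by gene family as calcium- or sodium-activated channels, and not every member need be opened by these ions. The remaining 15 encode auxiliary subunits that form no pore themselves and change the gating or transport of the pore subunits. Heart muscle and neurons rely on many of these genes, each with a set of its own, and epithelia, glia and smooth muscle use others.

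Library totals ran from 8146684 to 15540163 counts, and levels are given as CPM, a count scaled to library size with the TMM factor. Hnrnpk had 348 and 385 CPM in 6A and 495 and 474 CPM in WT at day 14, and 527 and 538 CPM in 6A and 880 and 709 CPM in WT at day 0. It was called lower in 6A on both days (edgeR adjusted p = 0.043 and 0.040), calls that 9 and 8 of 14 alternative settings lost. The counts of a gene do not show the mutated residues. Undifferentiated stem cell markers (7 genes such as Pou5f1 and Nanog) summed to 440 to 445 CPM in 6A and 305 to 306 CPM in WT at day 14, and to 3730 to 3937 CPM in 6A and 3764 to 3921 CPM in WT at day 0. The summed level of all potassium channel genes was 352 and 362 CPM in 6A and 425 and 423 CPM in WT at day 14, and 261 and 268 CPM in 6A and 258 and 290 CPM in WT at day 0. Of the 92, 66 passed the filter on low counts, which asks for enough counts in 1 group. The 26 others had at most 43 counts over the 8 libraries, and 4 of them (Kcna10, Kcnj1, Kcnk15 and Kcnmb3) had none. Among the tested genes, 13 reached 0.9 CPM in both libraries of no more than 1 group, so the counts of tested genes given here are descriptions.

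By the level per kilobase of exon, averaged over the means of the 4 groups, the first and the second gene were tandem-pore channels; the order differed between days and genotypes. Kcnk5, an alkaline-activated leak channel of epithelia, averaged 8.15 CPM per kb in 6A and 6.28 in WT at day 14, and 18.2 in 6A and 21.9 in WT at day 0. Kcnk1, a weakly conducting leak channel, had 8.08 CPM per kb in 6A and 12.6 in WT at day 14, and 6.11 in 6A and 8.98 in WT at day 0. The third by that average was Kcnh2, the pore of a repolarizing current of the heart, with 4.07 CPM per kb in 6A and 9.62 in WT at day 14, and 3.24 in 6A and 3.28 in WT at day 0. By the same average, Kcnj12 was first among the inward rectifiers (0.720 CPM per kb in 6A and 1.17 in WT at day 14, 4.40 in 6A and 3.87 in WT at day 0), although at day 14 Kcnj2 (1.68 in 6A and 3.5 in WT) and Kcnj8 (3.09 in 6A and 2.88 in WT) were higher. Kcnn1 was first among the calcium- and sodium-activated channels (1.58 in 6A and 1.90 in WT at day 14, 2.01 in 6A and 2.35 in WT at day 0), although Kcnn3 was higher at day 14 (2.67 in 6A and 2.48 in WT). Kcnab3 was first among the auxiliary subunits (0.607 in 6A and 0.633 in WT at day 14, 3.09 in 6A and 3.32 in WT at day 0), although Kcnab1 was higher at day 14 (2.38 in 6A and 0.846 in WT), as was Kcne4 (0.654 in 6A and 1.92 in WT). Kcnj12 is a strong inward rectifier of muscle, Kcnn1 a small-conductance calcium-activated channel and Kcnab3 a cytoplasmic beta subunit.

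At day 14, 13 of the 66 tested genes were lower in 6A than in WT and 5 were higher (edgeR quasi-likelihood test, Benjamini-Hochberg adjusted p under 0.05 over all genes). Of all 15458 tested genes 13.6% were called in this comparison, 8.31% lower and 5.33% higher, and of the potassium channel genes 27.3% were. Kcnc1, Kcng3, Kcnj11 and Kcnmb1 had enough counts in both libraries of WT day 14 alone, and Kcnk13 in those of 6A day 14 alone. These genes entered the test through the group where they were high, so their calls and the shares that include them are descriptions. The median log2 fold change of the 66 was -0.43, beside 0.004 for all genes. The protocol speaks of biological replicates without saying how they were kept apart, so p-values measure the spread between these libraries. In bulk RNA, fewer cells of a type and less RNA per cell cannot be told apart. Of the 18 calls 7 held in every alternative fit, those of Kcnab1, Kcnk3, Kcna1, Kcnh2, Kcnj2 and Kcnc1 among them, and the other 11 were lost in at least 1.

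**Figure D1:**
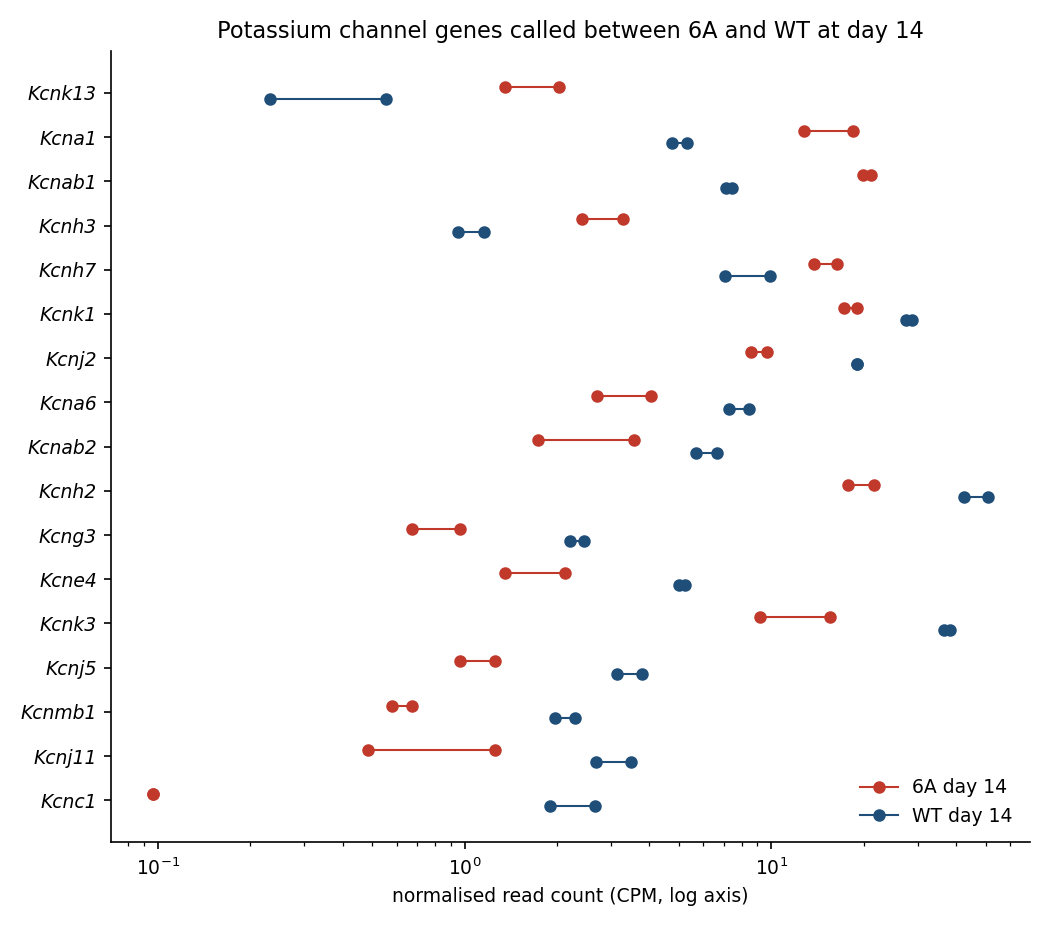
Normalised read count (CPM, logarithmic axis) of 17 potassium channel genes called between genotypes at day 14, with 1 point per library, the 2 libraries of a group joined by a line, 6A above WT in each row. The groups do not overlap for any of the 17, which adds no support because the genes were chosen by the call between these libraries. The widest gap is that of Kcnc1 with 1 count in each 6A library.

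Among the voltage-gated genes 5 of 31 tested were lower and 3 higher in 6A. Kcnc1 (chr7:46396497-46438704, plus strand), a fast channel of rapidly firing neurons, had 2 counts in 6A and 47 in WT, a ratio of 22.9 lower in 6A with a 95% counting interval of 5.99 to 194 (edgeR adjusted p = 0.0016).

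Kcnh2 (chr5:24319589-24351604, minus strand) had 21.6 and 17.8 CPM in 6A and 50.8 and 42.5 CPM in WT at day 14 (log2 fold change -1.24 ± 0.19, edgeR adjusted p = 0.00066). The 6A values stood near the day 0 levels, which were 15.7 and 15.7 CPM in 6A and 12.3 and 19.4 CPM in WT. Kcna6 (chr6:126708329-126740674, minus strand), a neuronal delayed rectifier, had 2.7 and 4.05 CPM in 6A and 8.46 and 7.28 CPM in WT (log2 fold change -1.21 ± 0.30, adjusted p = 0.014). An antisense gene, Gm26673, covers 39.6% of its exon bases, and since the strand setting of the counting is not given, reads of the overlap cannot be placed. Kcng3 (chr17:83585957-83631895, minus strand), a silent subunit that modifies other Kv channels, was at 0.676 and 0.965 CPM in 6A and 2.20 and 2.45 CPM in WT (log2 fold change -1.50 ± 0.41, adjusted p = 0.027).

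The 3 higher voltage-gated genes are all known from neurons. Kcna1 (chr6:126640397-126646384, minus strand), a low-threshold channel of axons, had 12.7 and 18.4 CPM in 6A, against 4.75 and 5.3 CPM in WT (log2 fold change 1.62 ± 0.25, edgeR adjusted p = 0.00060). Every day 0 library was under 0.4 CPM. Kcnh3 (chr15:99224861-99242817, plus strand), of the ether-a-go-go-like branch, had 3.28 and 2.41 CPM in 6A and 1.16 and 0.949 CPM in WT (log2 fold change 1.45 ± 0.36, adjusted p = 0.015). Kcnh7 (chr2:62693414-63184287, minus strand), a relative of Kcnh2 in the nervous system, had 13.8 and 16.4 CPM in 6A and 7.07 and 9.88 CPM in WT (log2 fold change 0.82 ± 0.24, adjusted p = 0.041). The exons of Gca overlap 4.57% of the Kcnh7 exon bases on the opposite strand.

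The 23 other tested voltage-gated genes were not called. Kcnq5, a subunit of a slow neuronal and muscle current, had 24.9 and 26.5 CPM in 6A and 25.5 and 29.4 CPM in WT (log2 fold change -0.10 ± 0.18, edgeR adjusted p = 0.79), and its groups overlapped. Kcna5 of the atrium had 13.1 and 14.3 CPM in 6A and 11.1 and 12.7 CPM in WT, a log2 fold change of 0.20 ± 0.19. Kcnd3, which carries a transient outward current of the heart, had 11.9 and 8.69 CPM in 6A and 8.58 and 10.4 CPM in WT, a log2 fold change of 0.10 ± 0.24. A p that misses the threshold does not show equal levels.

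**Figure D2:**
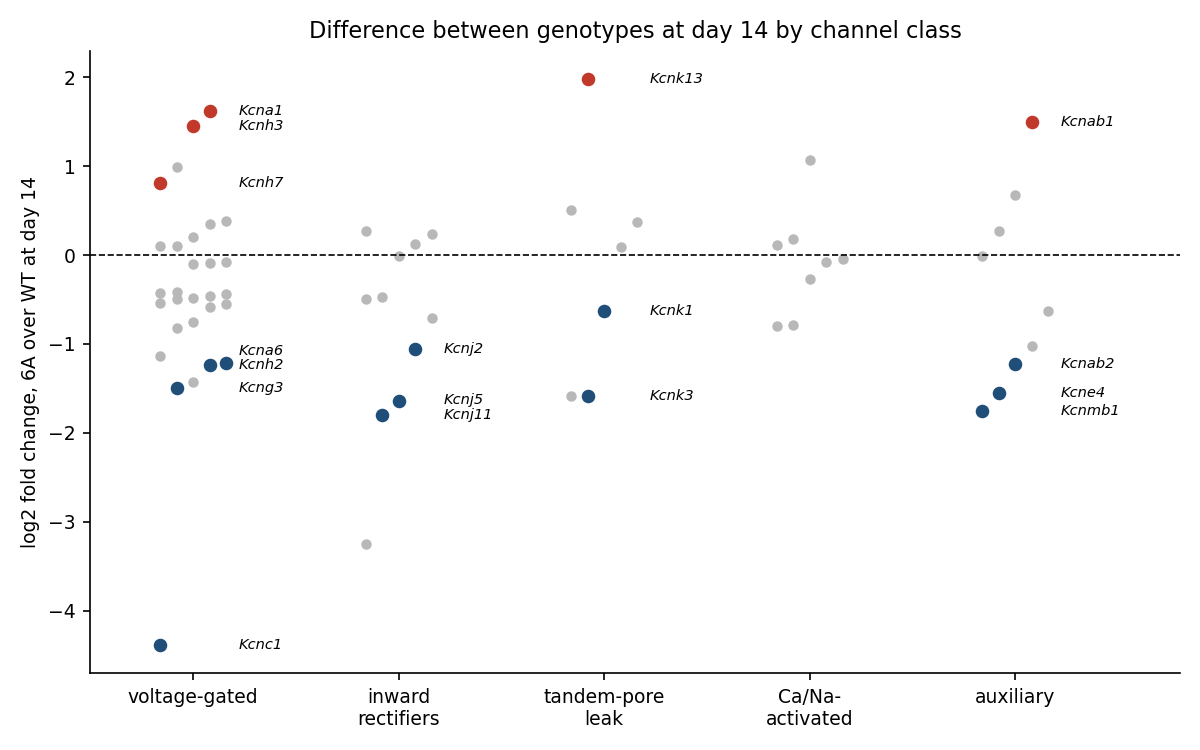
Log2 fold change of 6A over WT at day 14 for 64 of the tested genes by channel class, with 1 point per gene, called genes named and coloured (higher red, lower blue) and the others grey. The dashed line marks the median of all tested genes at 0.004; the lowest point, Kcnc1, lies in the voltage-gated class, and no calcium- or sodium-activated channel is coloured.

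Of 11 tested inward rectifiers 3 were lower in 6A and none was called higher. Kcnj2 (chr11:111066164-111076821, plus strand), which clamps the resting potential of heart and skeletal muscle, had 8.59 and 9.65 CPM in 6A and 19.0 and 19.1 CPM in WT (log2 fold change -1.06 ± 0.18, edgeR adjusted p = 0.0011). Kcnj5 (chr9:32314707-32344350, minus strand), a subunit of the G-protein-gated channel that slows the atrium, had 0.966 and 1.25 CPM in 6A and 3.13 and 3.80 CPM in WT (log2 fold change -1.64 ± 0.39, adjusted p = 0.016). Kcnj11 (chr7:46093953-46100764, minus strand), the pore of the ATP-sensitive channel of heart and pancreatic beta cells, had 1.26 and 0.483 CPM in 6A and 3.48 and 2.69 CPM in WT (log2 fold change -1.79 ± 0.49, adjusted p = 0.025). In each of the 3, both 6A libraries were under both WT libraries, which adds no support to genes picked by this call. Kcnj8, the ATP-sensitive pore of pericytes and vascular muscle, had 7.63 and 8.11 CPM in 6A and 8.58 and 6.09 CPM in WT (log2 fold change 0.12 ± 0.23) and was not called. At the unadjusted p of 0.05, 4 of the 11 passed, and DESeq2 called 1.

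Upstream sequences were at hand for 3 heart-list genes lower in 6A, those with a RefSeq entry (GRCm38.p6). These genes were picked by the day 14 call, and no uncalled heart-list gene is set beside them. The sequences are shown as a description. Each is the 250 bases before an annotated start, 5′ to 3′ on the gene's strand, with GGGCGG (the GC box) and GGACAG (the right part of the RE1 element that the repressor REST binds) in capitals. The Kcnh2 entry (chr5:24329592-24329841, minus strand) lies before a start inside the annotated gene, and the others are Kcnj2 (chr11:111065914-111066163, plus strand) and Kcnj5 (chr9:32344345-32344594, minus strand).
Kcnh2: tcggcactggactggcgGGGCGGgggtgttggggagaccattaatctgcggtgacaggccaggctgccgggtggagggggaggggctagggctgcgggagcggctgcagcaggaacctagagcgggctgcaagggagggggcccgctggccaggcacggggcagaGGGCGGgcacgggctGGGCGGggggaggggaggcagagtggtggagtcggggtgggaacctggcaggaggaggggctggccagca
Kcnj2: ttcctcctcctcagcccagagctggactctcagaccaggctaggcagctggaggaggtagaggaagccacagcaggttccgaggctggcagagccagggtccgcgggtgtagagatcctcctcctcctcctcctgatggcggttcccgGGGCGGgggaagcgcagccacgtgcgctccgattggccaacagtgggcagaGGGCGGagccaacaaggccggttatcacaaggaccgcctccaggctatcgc
Kcnj5: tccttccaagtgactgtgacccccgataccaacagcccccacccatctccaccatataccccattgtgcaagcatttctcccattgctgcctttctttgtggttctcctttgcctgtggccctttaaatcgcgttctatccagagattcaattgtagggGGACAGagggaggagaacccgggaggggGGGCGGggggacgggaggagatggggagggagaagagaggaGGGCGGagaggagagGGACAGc
Each held at least 2 GC boxes, 3 in Kcnh2, 2 in Kcnj2 and 2 in Kcnj5, and their GC content was 73.6%, 65.6% and 58.0%. Searched on both strands, GGGCGG was in 44.6% of the 92 upstream windows that RefSeq lists for 67 of the potassium channel genes, and in 32.7% of all 32851 windows of the same length. GGACAG was in 22.8% of the windows of potassium channel genes and 18.7% of all windows, and TTCAGCACC, the left part of RE1, in 1.09% and 0.301%. The letters TATAAA, a motif of the basal transcription machinery, were in 3.26% of the windows of potassium channel genes, beside 12.4% of all, and AGATAA, a site of blood and heart regulators, in 3.26%, beside 9.99%. The median GC content was 58.6% in the windows of potassium channel genes and 52.4% in all windows. The part of this base composition in the motif shares was not tested. A match is a run of letters and no evidence of binding.

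Of the 7 tested tandem-pore leak channels 2 were lower and 1 higher in 6A. Kcnk3 (chr5:30588170-30625271, plus strand), an acid-sensitive leak channel of heart and vascular muscle, had 9.17 and 15.5 CPM in 6A and 38.1 and 36.4 CPM in WT (log2 fold change -1.59 ± 0.21, edgeR adjusted p = 0.00020). Kcnk1 (chr8:125995170-126030685, plus strand) had 18.9 and 17.2 CPM in 6A and 28.7 and 27.4 CPM in WT (log2 fold change -0.63 ± 0.16, adjusted p = 0.017). Kcnk13 (chr12:99964499-100062682, plus strand), a leak channel known from microglia, went the other way, with 1.35 and 2.03 CPM in 6A and 0.232 and 0.554 CPM in WT (log2 fold change 1.98 ± 0.54, adjusted p = 0.026). Macrophage markers (6 genes such as Csf1r and Lyz2, 5 of them higher in 6A) summed to 247 to 250 CPM in 6A and 125 CPM in both WT libraries; their part in the Kcnk13 difference was not tested. Kcnk5 had 26.4 and 29.2 CPM in 6A and 21.9 and 20.9 CPM in WT, a log2 fold change of 0.38 ± 0.13 that missed the threshold (adjusted p = 0.083).

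None of the 8 calcium- or sodium-activated channels was called by edgeR at day 14, where 1 passed an unadjusted p of 0.05, or by DESeq2. Kcnn3, a small-conductance calcium-activated channel of neurons and vessels, had 26.5 and 29.4 CPM in 6A and 26.0 and 25.9 CPM in WT (log2 fold change 0.11 ± 0.21, edgeR adjusted p = 0.80). Kcnt2, opened by sodium, had 9.56 and 11.0 CPM in 6A and 9.51 and 11.5 CPM in WT, and Kcnma1, the large-conductance channel, had 4.54 and 5.31 CPM in 6A and 5.10 and 5.3 CPM in WT.

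Auxiliary subunits moved in both directions. Kcnab1 (chr3:65109384-65378223, plus strand), a beta subunit that gives Kcna channels fast inactivation, had 19.9 and 21 CPM in 6A and 7.42 and 7.12 CPM in WT (log2 fold change 1.49 ± 0.19, edgeR adjusted p = 0.00014), the smallest adjusted p of the 66. Kcnab2 (chr4:152390742-152477871, minus strand), another beta subunit, had 3.57 and 1.74 CPM in 6A and 5.68 and 6.64 CPM in WT (log2 fold change -1.22 ± 0.31, adjusted p = 0.018). Kcne4 (chr1:78816758-78820028, plus strand), a single-span subunit that damps Kv currents, had 2.12 and 1.35 CPM in 6A and 4.98 and 5.22 CPM in WT (log2 fold change -1.55 ± 0.32, adjusted p = 0.0049). Kcnmb1 (chr11:33963013-33973641, plus strand), which tunes the Kcnma1 channel to calcium in smooth muscle, had 0.676 and 0.579 CPM in 6A and 1.97 and 2.29 CPM in WT (log2 fold change -1.76 ± 0.46, adjusted p = 0.020), while Kcnma1 itself was not called. Kcnmb1 lies within the span of Kcnip1 on the same chromosome. Smooth muscle markers (6 genes, 5 of them lower in 6A) summed to 1308 to 1405 CPM in 6A and 1818 to 2177 CPM in WT; their part was not tested.

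Sorted by the tissue a gene is best known from, 5 of 11 tested heart genes were lower in 6A at day 14 and none was called higher (Kcnh2, Kcnj2, Kcnj5, Kcnj11 and Kcnk3 lower; median log2 fold change -0.80; 3 lower by DESeq2). Beside this, 8.31% of all tested genes were called lower and 5.33% higher, and no tissue list was tested against these shares. The 6 others were Kcna5, Kcnd3, Kcnip2, Kcnj3, Kcnj12 and Kcnn2, which did not pass. The 12 heart muscle markers, Myh6 and Tnnt2 among them, were all lower in 6A. They summed to 278 to 295 CPM in 6A and 1535 to 1738 CPM in WT, and none was at 0 at day 14. Their part in the difference of the channel genes was not tested. Of 25 tested genes known from neurons, 3 were lower (Kcnc1 and Kcna6 among them) and 3 higher (Kcna1, Kcnh3 and Kcnh7), with a median of -0.44, while 8 of 12 neuron markers such as Map2 and Tubb3 were lower and none was called higher. The neuron markers summed to 61.6 to 61.9 CPM in 6A and 216 to 220 CPM in WT at day 14, and to 443 to 446 CPM in 6A and 515 to 539 CPM in WT at day 0, so their sum was higher at day 0 than at day 14 in both genotypes. Of the 8 tested genes known from epithelia or glia 2 were lower (Kcnk1 and Kcnab2), and of the 4 known from smooth muscle and pericytes 1 was (Kcnmb1). DESeq2 called none in either list. Glial markers summed to 110 to 118 CPM in 6A and 126 to 139 CPM in WT, with Olig2 at 0 in 6A, and red cell markers to 83.4 to 85.5 CPM in 6A and 1.42 to 2.09 CPM in WT.

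The 11 less stable calls were lost without a single day 14 library, and most of them also with DESeq2 on all libraries. Over all tested genes DESeq2 called 823 lower and 732 higher, beside 1285 and 824 by edgeR. Fits without a day 14 library also called fewer genes over all, so such losses were not particular to potassium channel genes. DESeq2 called 9 genes and lost Kcna6, Kcnj5, Kcnk1, Kcnab2, Kcnmb1, Kcnj11, Kcnk13, Kcng3 and Kcnh7 (adjusted p 0.054 to 0.24). Without WT day 14 replicate 1 the count fell to 8, with Kcnh3 lost beside those 9 (edgeR adjusted p 0.064 to 0.29), whereas leaving out WT day 14 replicate 2 gave 7, with Kcne4 lost as well (0.056 to 0.17). Without 6A day 14 replicate 1 it was 10, where Kcnab2 and Kcnj11 kept the call but Kcnh3 did not (0.055 to 0.21), and without 6A day 14 replicate 2 it was 9, where Kcna6 and Kcnh3 kept it but Kcne4 did not (0.069 to 0.22). No named gene changed direction in any of these fits.

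Before differentiation the genotypes differed in 1 of the 66 genes, a share of 1.52% beside 1.58% of all tested genes (1.06% higher, 0.518% lower), so the count is at the background. Kcnj2 had 5.04 and 4.87 CPM in 6A and 1.85 and 2.05 CPM in WT at day 0 (log2 fold change 1.33 ± 0.24, edgeR adjusted p = 0.017; DESeq2 called it too). At day 0 its allele reads were nearly all from 129, 48 of 48 in 6A and 15 of 16 in WT, whereas at day 14 they were 31 of 58 in 6A and 100 of 156 in WT. Y-linked genes summed to 43.4 to 46.9 CPM in 6A and 28.2 to 28.3 CPM in WT at day 0, and to 0 to 0.0966 CPM in 6A and 0 CPM in WT at day 14. Fibroblast markers summed to 1455 to 2058 CPM in 6A and 1344 to 1444 CPM in WT at day 0, and the part of these values in the Kcnj2 difference was not tested. The call was lost when the 2 groups were fitted alone (adjusted p = 0.13) and without 6A day 0 replicate 1 (0.080), 6A day 0 replicate 2 (0.11) or WT day 0 replicate 2 (0.065).

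Differentiation moved most tested potassium channel genes in both genotypes, as it moved most of all tested genes. The shares called were thus near the background. In 6A, 32 of the 66 rose and 21 fell between day 0 and day 14, and in WT 34 rose and 18 fell. The called shares were 80.3% in 6A and 78.8% in WT, beside 71.9% of all genes in 6A (35.4% higher, 36.6% lower) and 75.2% in WT (38.4% higher, 36.8% lower). The median log2 fold change was 1.08 in 6A (0.88 with genes at 0 counts set to their bound) and 1.19 in WT, beside -0.03 in 6A and 0.04 in WT for all genes. The rises included Kcnn3, which had 26.5 and 29.4 CPM at day 14 and 0.257 and 0.935 CPM at day 0 in 6A (log2 fold change of 5.44 ± 0.32, edgeR adjusted p = 4.1e-09), and 26.0 and 25.9 CPM at day 14 and 0.247 and 0.777 CPM at day 0 in WT (5.46 ± 0.34, adjusted p = 5.8e-09). Kcnq5 had 24.9 and 26.5 CPM at day 14 and 2.05 and 1.4 CPM at day 0 in 6A, and 25.5 and 29.4 CPM at day 14 and 1.11 and 2.05 CPM at day 0 in WT. Day 14 lay more than 10 CPM above day 0 in each of these.

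Kcna5 rose to 13.1 and 14.3 CPM in 6A, against 0.257 and 0.200 CPM at day 0 (log2 fold change 5.86 ± 0.34, edgeR adjusted p = 3.4e-09). In WT it had 256 counts at day 14 and 1 count at day 0, a ratio of 268 with a 95% counting interval of 47.7 to 10624. Kcnd3 had 206 counts at day 14 and 2 at day 0 in WT, a ratio of 108 (29.5 to 896). Some genes were not counted at day 0 at all. Kcnj5 was at least 9.87-fold higher at day 14 in 6A and at least 26.2-fold higher in WT, and Kcne3, a partner subunit of epithelia, at least 13.7-fold in 6A and 23.7-fold in WT, against a floor of 3 counts per group. Kcns1, a silent neuronal subunit, was at least 39.8-fold higher at day 14 in WT and had a log2 fold change of 3.76 ± 0.45 in 6A.

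Falls on differentiation included that of Kcnk5, with 26.4 and 29.2 CPM at day 14 and 63.2 and 60.5 CPM at day 0 in 6A (log2 fold change of -1.16 ± 0.13, edgeR adjusted p = 2.2e-06), and 21.9 and 20.9 CPM at day 14 and 71.1 and 78.2 CPM at day 0 in WT (-1.81 ± 0.13, adjusted p = 2.7e-08). Kcnj12 had 2.41 and 1.54 CPM at day 14 and 12.8 and 11.3 CPM at day 0 in 6A, and 3.01 and 3.4 CPM at day 14 and 9.87 and 11.4 CPM at day 0 in WT. Kcnab3 had 1.64 and 1.83 CPM at day 14 and 8.21 and 9.48 CPM at day 0 in 6A, and 2.20 and 1.42 CPM at day 14 and 10.4 and 8.69 CPM at day 0 in WT. Set side by side, 28 genes rose in both genotypes, 17 fell in both and none moved in opposite directions. A rise was called in WT alone for Kcna3, Kcnc1, Kcne4, Kcnh2, Kcnk10 and Kcnmb1, and in 6A alone for Kcna4, Kcnj3, Kcnk6 and Kcnk13. A fall was called in WT alone for Kcnc2, and in 6A alone for 4 genes, Kcna7, Kcnab2 and Kcnn2 among them. Such a split of calls is no test of the difference, which the interaction gives. Kcnf1, Kcng1, Kcnh1, Kcnj4, Kcnn1 and Kcnt1 were called in neither.

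**Figure D3:**
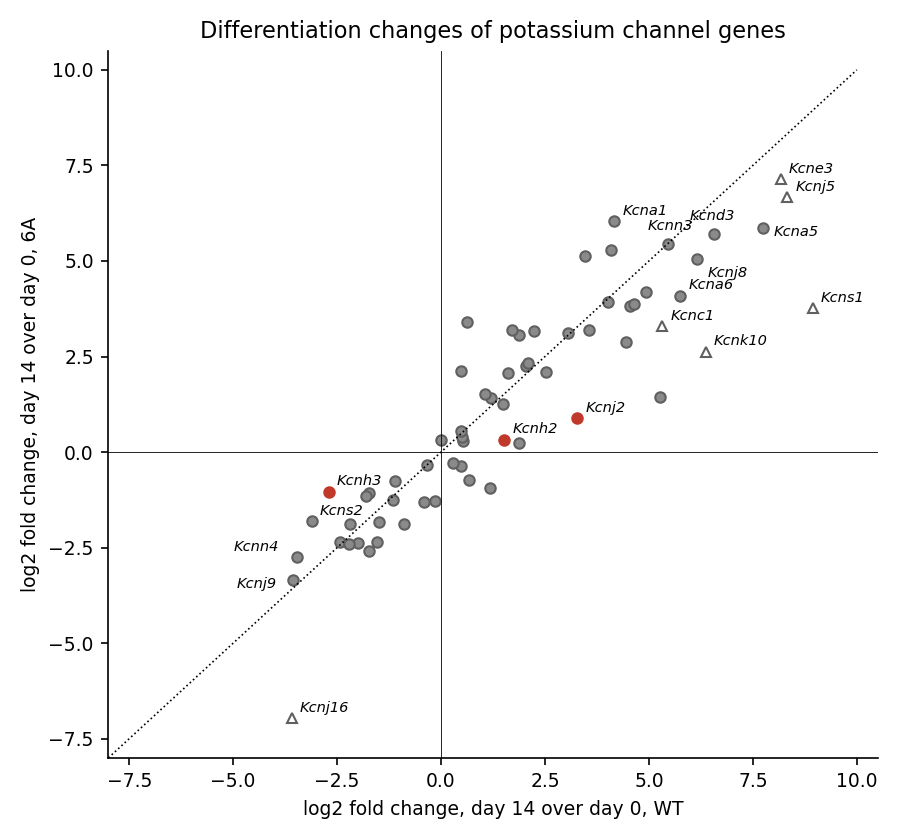
Log2 fold change of day 14 over day 0 for 64 of the tested genes, 6A on the vertical and WT on the horizontal axis, with the line of equal change dotted. Red points are 3 genes called in the genotype by day interaction; open triangles have 0 counts in at least 1 group, where the fitted value is no bound. Kcnj2 lies at 0.88 in 6A and 3.27 in WT.

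By class, voltage-gated genes rose in 15 and fell in 9 of 31 cases in 6A, and rose in 17 and fell in 8 in WT. Inward rectifiers rose in 5 and fell in 5 of 11 in 6A, and rose in 4 and fell in 5 in WT. Of the 7 tandem-pore genes 5 rose in 6A and 4 in WT, with Kcnk5 the single fall in each. The 8 calcium- and sodium-activated channels had 3 rises and 3 falls in 6A, and 3 rises and 2 falls in WT, and the 9 auxiliary subunits 4 rises and 3 falls in 6A, and 6 rises and 2 falls in WT. Differences between the classes were not tested.

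The change of the genotype difference between the days, tested as an interaction, was called for 4 of 66 genes, 6.06% beside 4.74% of all tested genes (1.4% with a positive and 3.34% with a negative interaction), which is near the background. For Kcnj2 the genotype order turned round, higher in 6A at day 0 and lower in 6A at day 14, with an interaction of -2.39 ± 0.30 on the log2 scale (edgeR adjusted p = 0.00059). The day 0 side of this carries the limits given above, a call lost in some alternatives and an untested part of feeder RNA. For Kcnh2 the interaction was -1.20 ± 0.28 (edgeR adjusted p = 0.025) and for Kcnh3 1.67 ± 0.43 (adjusted p = 0.041). Kcnh3 fell in both genotypes, to 3.28 and 2.41 CPM in 6A and 1.16 and 0.949 CPM in WT at day 14, against 6.50 and 5.27 CPM in 6A and 7.53 and 6.28 CPM in WT at day 0. Of the 4 calls 2 held in every alternative, that of Kcnj2 among them. That of Kcnh2 was lost without WT day 14 replicate 1 or 2, 6A day 0 replicate 2 or 6A day 14 replicate 2. That of Kcnh3 was lost with DESeq2 (adjusted p = 0.10) and without WT day 0 replicate 1, 6A day 0 replicate 2 or any 1 of the 4 day 14 libraries (edgeR adjusted p 0.051 to 0.21 over the losses of both genes).

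**Figure D4:**
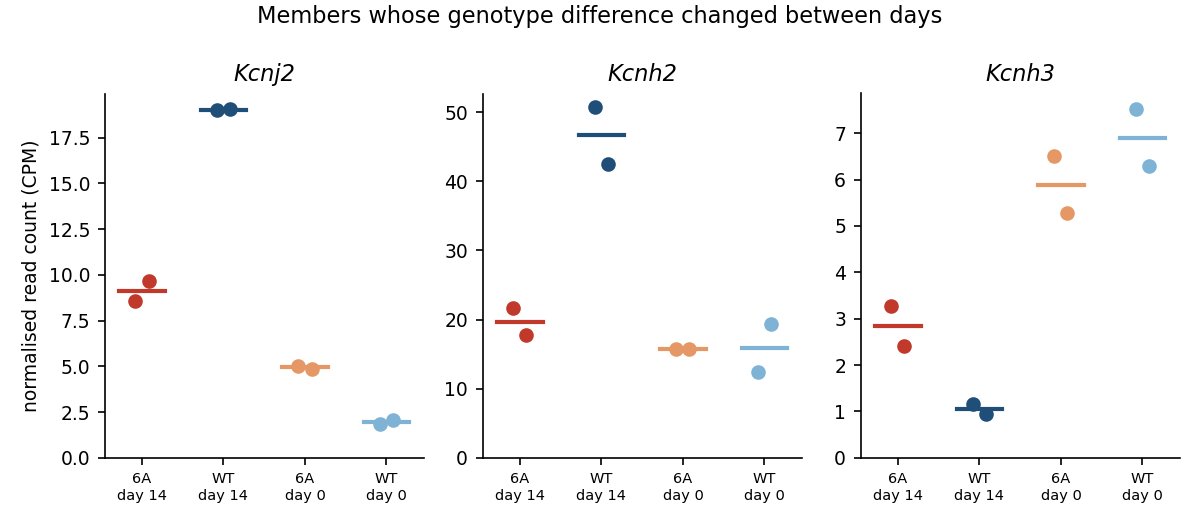
Normalised read count (CPM) of 3 genes called in the interaction, with 1 point per library and a bar at the mean of each group, in the order 6A day 14, WT day 14, 6A day 0 and WT day 0. Each panel has its own axis from 0; Kcnj2 in 6A is above WT at day 0 and below it at day 14.

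Reads that could be given to a parental genome offered a readout that the choice of genes did not use. On 11 of the 20 chromosomes, which hold 50 of the 92 genes, between 94.9% and 98.0% of the allele reads of the day 14 libraries were from 129, and the other 42 genes lie where CAST reads made up more. Of the 26 genes with at least 20 allele reads in both day 14 groups, 18 had over 90% 129 reads in both, and 6 lay between 10% and 90% in both (Kcnh7, Kcnj2, Kcnk3, Kcnk6 and Kcnn1 among them). Wilson 95% intervals are given for shares; they cover counting error alone, since reads without molecular identifiers are not independent molecules. Kcnj2 had 53.4% 129 reads in 6A (40.8 to 65.7) and 64.1% in WT (56.3 to 71.2) at day 14, and Kcnk3 68.8% in 6A (54.7 to 80.1) and 80.8% in WT (73.8 to 86.3), intervals that overlap for both genes. Kcnh7 had 31.7% in 6A (24 to 40.4) and 58.8% in WT (48.2 to 68.7). In the test of the 129 share across 12390 genes, 0.0565% were called, and none of the 33 potassium channel genes tested was. Kcna6, Kcnj12, Kcnma1 and Kcnmb4, among others, had no CAST reads in either day 14 group, so the test could show no shift in them. Genes read almost only from 129 gave it little room as well, so the lack of calls does not show equal shares. Kcnh7 was the single gene of the 33 that passed at an unadjusted threshold of 0.05, with an edgeR adjusted p = 1. No DESeq2 fit of the allele reads was made.

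Kcnd1 (chrX:7822289-7838280, plus strand), a transient outward channel of neurons and the single X-linked gene of the 92, had 7.24 and 7.24 CPM in 6A and 6.26 and 7.12 CPM in WT at day 14, and 14.5 and 19.7 CPM in 6A and 12.5 and 17.0 CPM in WT at day 0. Of its allele reads at day 14, 9.09% were from 129 in 6A (6 of 66, interval 4.23 to 18.4) and 6.35% in WT (4 of 63, 2.50 to 15.2). At day 0 the shares were 53.8% in 6A (47.3 to 60.2) and 50.3% in WT (42.8 to 57.7). Within each day the intervals of the genotypes overlapped, and within each genotype those of the days did not. Day 0 was left out of the allele test because feeder RNA can add allele reads there. The part of such reads in the day 0 shares of Kcnd1 was not tested. On the whole X chromosome 18.9% of the day 14 allele reads were from 129.

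**Figure D5:**
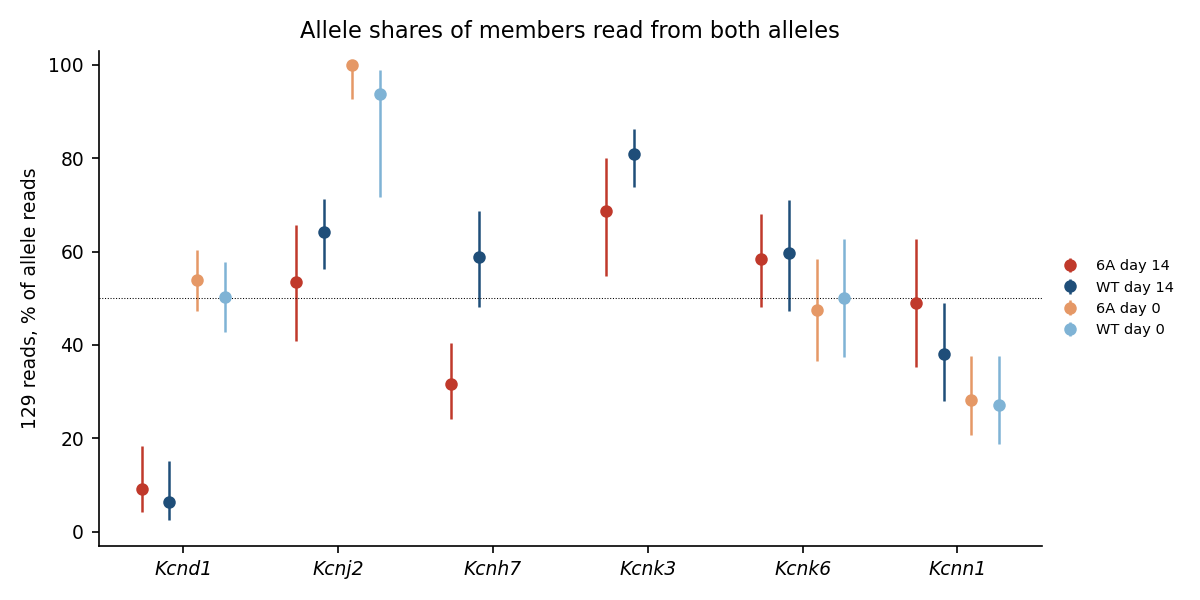
Share of allele reads from 129 (percent) for Kcnd1 and 5 genes read from both alleles, reads of the 2 libraries of a group summed, with Wilson 95% intervals, in the order 6A day 14, WT day 14, 6A day 0 and WT day 0; groups with under 15 allele reads are left out. Kcnd1 stands near 50% at day 0 and under 10% at day 14, and Kcnj2 above 90% at day 0.

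Among genes that neighbour each other, 10 pairs lay within 200000 bases. On chromosome 6 Kcna5, Kcna1 and Kcna6 follow each other, with 104985 and 61945 bases between them; at day 14 Kcna1 was higher and Kcna6 lower in 6A, and Kcna5 was not called. Kcnj16, a kidney and glial inward rectifier, lies 38196 bases before Kcnj2 and had 0 counts in 6A at day 14 and 2 in WT. Kcnq1, the slow delayed rectifier of the heart whose exons overlap those of the imprinted RNA Kcnq1ot1 by 2.96% of their bases, was not tested, with 0 and 0.386 CPM in 6A and 0.232 and 0.791 CPM in WT at day 14. Kcnq1ot1 had 744 and 889 CPM in 6A and 467 and 729 CPM in WT (log2 fold change 0.45 ± 0.17, edgeR adjusted p = 0.12). Kcnk9, an acid-sensitive leak channel of neurons, was not tested either, with under 0.5 CPM in every library.

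Some other genes of membrane excitability and ion transport, from lists chosen by function or family, differed between the genotypes at day 14 as well. Of all tested genes 8.31% were called lower and 5.33% higher in that comparison, and no list was tested against these shares. At day 0 the only call in these lists was Cacna2d1, higher in 6A by 0.70 on the log2 scale (adjusted p = 0.045 by edgeR), which 9 of 14 alternatives lost. Voltage-gated calcium channels were lower in 7 of 16 tested cases and higher in none (4 to 7 lower over the alternatives). Cacna1h, a low-threshold channel, had 70.4 and 71.9 CPM in 6A and 156 and 139 CPM in WT (log2 fold change -1.05 ± 0.13, edgeR adjusted p = 9.4e-05), and Cacna1c, the main calcium channel of the heart, 49.2 and 53.3 CPM in 6A and 86.4 and 97.8 CPM in WT. Of 10 tested genes in the sodium channel list, which includes the leak channel Nalcn, 2 were lower (1 by DESeq2). Scn3a, of immature neurons, had 1.16 and 1.25 CPM in 6A and 11.7 and 10.7 CPM in WT (log2 fold change -3.20 ± 0.26, adjusted p = 4.2e-06), and the leak channel Nalcn 0.773 and 0.579 CPM in 6A and 2.67 and 2.45 CPM in WT.

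Partner proteins of potassium channels were lower in 5 of 13 cases (Ank2, Ank3, Cntnap2, Dlg4 and Dpp6) and higher in 1. Ank3, which anchors channels at the start of the axon, had 72.5 and 76.0 CPM in 6A and 134 and 165 CPM in WT (log2 fold change -1.01 ± 0.13, edgeR adjusted p = 0.00017). Sodium-potassium pump subunits, which build the potassium gradient, were lower in 4 of 10 cases (Atp1b2 and Fxyd1 among them) and higher in 1 (Fxyd2). Atp1b2 had 11.8 and 18.1 CPM in 6A and 47.2 and 44.0 CPM in WT (log2 fold change -1.61 ± 0.27, adjusted p = 0.0027). In the Clcn gene list, Clcn7 was the 1 of 6 tested genes called higher, with 61.7 and 51.3 CPM in 6A and 42.4 and 41.0 CPM in WT. Rest, a repressor of neuronal genes, had 194 and 180 CPM in 6A and 164 and 157 CPM in WT (log2 fold change 0.22 ± 0.13, adjusted p = 0.31), and of its 9-gene list with cofactors Rcor2 was lower and Hdac1 higher. The calls of Ank2, Ank3, Cntnap2, Atp1b2, Cacna1c, Cacna1h, Cacna2d2, Cacnb2 and Scn3a held in every alternative. The calls of Cacna1d, Cacna1g, Cacna2d3, Clcn7, Dlg4, Dpp6, Fxyd1, Fxyd2, Hdac1, Nalcn and Rcor2 were lost without at least 1 day 14 library, with adjusted p values up to 0.34.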

How the data were processed

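Total RNA was extracted with TRIzol, depleted of ribosomal RNA, made into strand-marking libraries and read as paired 150-base reads, per the labels' protocols. STAR 2.7.10a, cutadapt 1.4.2 and the mm10 build are named in the submitters' processing notes; the counter, its strand setting, the annotation and the way reads were assigned to alleles are named in none of the sources used here. The authors deposited raw counts per gene for each library, as all reads, CAST reads and 129 reads, with 29.1% to 31.6% of counts assigned to an allele. A floor of 3 counts equals 0.200 to 0.370 CPM.

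From these counts, edgeR 4.0.16 (R 4.3.3) fitted all 8 libraries with 1 mean per group, TMM scaling, the default filter on low counts and the robust quasi-likelihood test with 4 residual degrees of freedom; the common biological coefficient of variation was 0.111. P-values were adjusted by Benjamini-Hochberg over the 15458 genes tested and called under 0.05. Rank or permutation tests of 2 against 2 libraries cannot go under p = 0.333. The allele test compared 129 and CAST counts within the 4 day 14 libraries, for 12390 genes that averaged 10 or more such reads. Counts of 1 to 3 were turned into ratios with exact 95% intervals and counts of 0 into bounds from a floor of 3 counts per group. The code was tested on simulated data. Positions and exon lengths come from GENCODE release M21, which matched all 92 genes, and upstream sequences from RefSeq.

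The genes and lists were chosen with earlier results of these data known. Named were the called genes with the smallest adjusted p (up to 24 at day 14, 12 per day contrast, 10 in the interaction and all at day 0) that reached 1 CPM in the groups compared, the 3 genes of each class with the highest level per kilobase, X-linked genes, Kcnq1, Kcnk9, and up to 4 genes per companion list. Genes outside that rule, such as the other members of a short count, were named after their values were seen. Some genes counted in these totals are not reported here by name. Alternatives were RLE scaling, DESeq2 1.42.0, other filters, a fit of only the groups compared, a threshold of 1 on the log2 fold change, a replicate block and leaving out each library.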

Additional observations from a re-analysis of the deposited data

Results flagged for a closer look

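For the 3 potassium channel genes given here, the edgeR interaction test over all genes called a change of the genotype difference between days. The call of Kcnj2 held in every alternative, and those of Kcnh2 and Kcnh3 did not. The 6.06% of potassium channel genes called was near the 4.74% of all tested genes. Kcnj2 had an interaction of -2.39 on the log2 scale (adjusted p = 0.00059): its level was higher in 6A at day 0 and lower in 6A at day 14. Its day 0 call was lost when the 2 groups were fitted alone. Y-linked genes summed to 43.4 to 46.9 CPM in 6A and 28.2 to 28.3 CPM in WT at day 0. The part of feeder RNA in the day 0 difference was not tested. For Kcnh2 the interaction was -1.20 (adjusted p = 0.025), with a difference of -1.24 at day 14 and -0.04 at day 0. For Kcnh3 it was 1.67 (adjusted p = 0.041), with a difference of 1.45 at day 14 and -0.22 at day 0.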

How the results depend on the processing

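No named gene reversed its direction under any alternative. At day 14 the 18 calls between genotypes became 9 with DESeq2 and 7 to 18 when 1 library was left out. They stayed at 18 with RLE scaling, no filter or a stricter filter, and were 16 with a log2 fold change over 1. At day 0 the 1 call became 0 when the 2 groups were fitted alone and 0 to 1 without 1 library. The 4 interaction calls became 2 to 4 without 1 library. The causes were not tested, apart from the fewer libraries that leaving one out gives. Calls on differentiation ran from 44 to 56 in 6A (53 with all libraries) and from 46 to 57 in WT (52 with all libraries). The allele test called none of these genes in any alternative. Libraries with the same replicate number did not all deviate together (correlations of 0.0042 to 0.237), so the numbers were not taken as pairs; a fit with the replicate block called 18 genes at day 14, 1 at day 0, 52 in 6A and 52 in WT on differentiation and 6 in the interaction. With 2 libraries a group, and 26 of the 92 genes too low to test, smaller changes were not detectable at this depth.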
